A study of Mus musculus with 8 samples.

Results

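The genes described here are 7 repressors of the mammalian circadian clock, Per1, Per2, Per3, Cry1, Cry2, Ciart and Bhlhe41, in an insulin-secreting mouse cell line treated with selenomethionine (SeMet). They were chosen by symbol among the 3278 genes of the authors' deposited list of differentially expressed genes, and 7 of 7 were in it. GENCODE M21 annotates 55450 genes, so 3278 of 55450 is the background for each count of listed genes below. How many of the unlisted genes these cells express is not given. The choice was made knowing that all 7 were lower in SeMet cells, so their difference between the groups is described and not tested. MIN6-K8 cells come from a mouse insulinoma; the labels give their strain background as IT6 and their genotype as wild-type, for every library of both groups. The groups were 4 libraries of cells given 40 µM SeMet, the methionine analogue that carries selenium in place of sulfur, for 6 days, and 4 libraries of cells left untreated. The study's title places the comparison in work on insulin secretion. Whether the replicate libraries were grown as separate cultures is not stated in the labels, so their spread may be technical. No time of day and no synchronisation of the cells is given, and a day is given for the SeMet libraries only. Whether both groups were harvested at the same time is not stated. The daily course of these transcripts was not measured.

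In the circadian clock of mammals, the activators CLOCK and BMAL1 bind E-box motifs in DNA and switch on the Period (Per) and Cryptochrome (Cry) genes. The PER and CRY proteins form a complex that returns to the nucleus and blocks CLOCK and BMAL1, which closes a loop of about a day. Ciart encodes CHRONO, a further repressor of CLOCK and BMAL1, and Bhlhe41 encodes DEC2, a repressor that competes for E-boxes. Pancreatic beta cells carry such a clock, and it is known to shape insulin secretion over the day.

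The promoters of these genes are shown because the E-box is the site through which the loop acts. In a RefSeq table on GRCm38.p6, the same assembly as mm10, windows upstream of a transcript's start matched 6 of the 7 genes, all but Per2. The 250 bases before the start are given 5′ to 3′ on the gene's strand, 1 start per gene. Capitals mark matches, on either strand, to CACGTG (the E-box), CACGTT (the E-prime box, a variant E-box), TTANGTAA (the D-box, which binds DBP, TEF and NFIL3), TGACGTCA (the cyclic AMP response element) or AGGTCA (a half-site of ROR and REV-ERB receptors). No 2 matches overlapped.
Per1 (chr11:69098699-69098948, plus strand): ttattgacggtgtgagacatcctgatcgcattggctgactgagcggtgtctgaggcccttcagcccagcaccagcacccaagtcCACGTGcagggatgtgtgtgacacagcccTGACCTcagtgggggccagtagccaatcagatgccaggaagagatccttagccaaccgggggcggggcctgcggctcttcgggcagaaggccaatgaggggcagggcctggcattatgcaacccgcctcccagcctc
Per3 (chr4:151044666-151044915, minus strand): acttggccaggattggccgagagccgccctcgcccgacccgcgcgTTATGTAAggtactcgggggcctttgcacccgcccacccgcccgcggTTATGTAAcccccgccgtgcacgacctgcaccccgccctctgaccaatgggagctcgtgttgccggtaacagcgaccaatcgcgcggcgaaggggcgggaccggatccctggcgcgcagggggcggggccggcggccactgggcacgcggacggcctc
Cry1 (chr10:85185055-85185304, minus strand): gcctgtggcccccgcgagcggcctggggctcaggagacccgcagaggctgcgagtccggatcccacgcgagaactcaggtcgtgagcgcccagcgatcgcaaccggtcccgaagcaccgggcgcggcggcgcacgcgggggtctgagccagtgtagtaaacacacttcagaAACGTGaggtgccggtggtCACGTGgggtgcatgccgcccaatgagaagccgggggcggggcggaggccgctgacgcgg
Cry2 (chr2:92434070-92434319, minus strand): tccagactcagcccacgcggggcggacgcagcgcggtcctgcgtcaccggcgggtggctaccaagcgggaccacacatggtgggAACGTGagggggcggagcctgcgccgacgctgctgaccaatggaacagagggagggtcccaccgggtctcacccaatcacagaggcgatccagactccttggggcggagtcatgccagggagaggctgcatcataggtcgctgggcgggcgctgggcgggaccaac
Ciart (chr3:95882229-95882478, minus strand): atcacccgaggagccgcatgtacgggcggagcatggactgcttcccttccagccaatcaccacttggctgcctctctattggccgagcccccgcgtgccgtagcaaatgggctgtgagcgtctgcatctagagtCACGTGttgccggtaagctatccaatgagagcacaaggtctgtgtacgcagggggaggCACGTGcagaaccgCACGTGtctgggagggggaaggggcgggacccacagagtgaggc
Bhlhe41 (chr6:145865421-145865670, minus strand): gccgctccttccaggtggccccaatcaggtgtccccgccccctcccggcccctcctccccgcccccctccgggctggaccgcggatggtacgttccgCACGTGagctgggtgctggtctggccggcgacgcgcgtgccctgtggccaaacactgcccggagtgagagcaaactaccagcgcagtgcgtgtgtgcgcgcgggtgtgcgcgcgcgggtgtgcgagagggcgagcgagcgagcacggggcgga

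An E-box was present in the windows of 4 of the 6 genes, Per1, Cry1, Ciart and Bhlhe41. Of all 27025 genes with a window, 6.86% held one, as did 9.34% of the listed genes that were lower in SeMet cells and 10.4% of those that were higher. Ciart held 3 E-boxes, with first bases 116, 58 and 44 bases before the start. Cry1 held an E-box at 60 bases and an E-prime box at 79 bases, and Cry2 held an E-prime box alone, at 166 bases. E-prime boxes were in 4.50% of all genes. Per3 held neither form but 2 D-boxes, at 205 and 158 bases, a motif found in 2.44% of all genes. Per1 had a half-site (15.8% of all genes) beside its E-box, and a second RefSeq start of Per1 had no match in its window. The cyclic AMP response element, in 1.77% of all genes, was in no window of the 6. The windows were rich in G and C, at 62.0% to 73.6% of bases against a median of 52.4% over all windows, and the part of base composition in these matches was not tested. A match describes letters only.

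**Figure D1:**
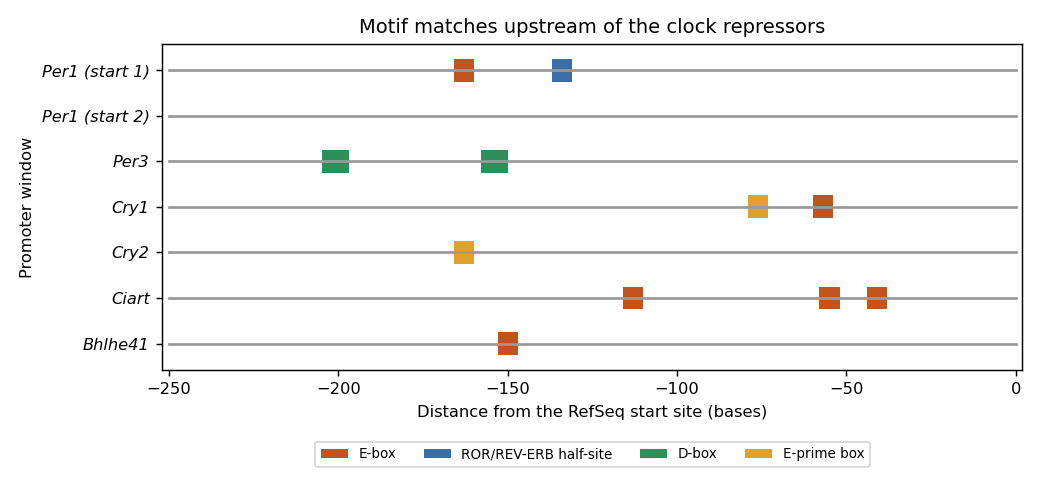
Motif matches in the 250 bases upstream of each RefSeq start site. The horizontal axis is distance from the start in bases, each grey line is 1 window and coloured boxes are matches on either strand. Ciart carries 3 E-boxes, Per3 carries 2 D-boxes, and the second start of Per1 has no match.

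The listed genes held 9269698 to 9965372 reads per SeMet library and 8544454 to 11144953 per control library. The values are normalised counts, read from the file as gene counts divided by 1 factor per library, and 1 read was worth 0.885 to 1.15 of them. Reads and counting errors given here rest on that inference, which a check of the unit against the file did not accept. The 7 repressors rested on 95 to 3330 reads per library. Of 15 beta cell markers, 14 were listed. In limma 2 of them were higher and 12 lower in SeMet cells (Benjamini-Hochberg adjusted p under 0.05 over the listed genes), beside 47% of all listed genes higher and 53% lower. With p adjusted over all annotated genes 1 was higher and 10 lower. Their median log2 difference was -0.19, beside -0.13 over all listed genes, with Slc30a8, a granule zinc transporter gene, at -0.39 ± 0.04 (SE) and the granule protein gene Chga at -0.25 ± 0.04. The smallest differences were in the transcription factor gene Pdx1 (-0.11 ± 0.04) and in G6pc2, a glucose-6-phosphatase gene (0.12 ± 0.04), and neither passed under that wider adjustment (limma adjusted p = 0.0937 and 0.108). Rescaling the libraries by the median ratio or to the same listed sum brought Pdx1 to -0.07 or -0.05. Both rescalings also ended its call (limma adjusted p = 0.078 and 0.197). The listed sum was taken without Ins1, Ins2 and Iapp. Of 9 markers of other islet cells, 4 were listed and higher, with a summed level of 1745 to 1949 normalised counts in SeMet libraries and 1162 to 1284 in controls; the hormone genes were Gcg (1.13 ± 0.09) and Ppy (0.86 ± 0.15), the regulators Irx2 (0.30 ± 0.06) and Irx1 (0.26 ± 0.06). Of 8 acinar and duct markers none was listed, and of 11 stromal, endothelial and immune markers only Col1a1 was, at 2.78 to 9.57 normalised counts in SeMet libraries and 11.1 to 20.1 in controls. The part of cell composition in the results below was not tested, and in bulk RNA fewer cells of a type and less RNA per cell cannot be told apart.

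All 7 repressors were lower in SeMet cells, by 12.0% for Cry2 to 35.1% for Ciart. For each of the 7, every SeMet library lay below every control library. Such separation was common in this list of selected genes: of all listed genes 45.6% had groups that did not overlap with SeMet lower and 40.3% with SeMet higher, 85.8% in all. The median log2 difference over the 7 was -0.41, beside -0.13 over all 3278 listed genes and -0.26 over the 1737 listed genes that were lower.

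**Figure D2:**
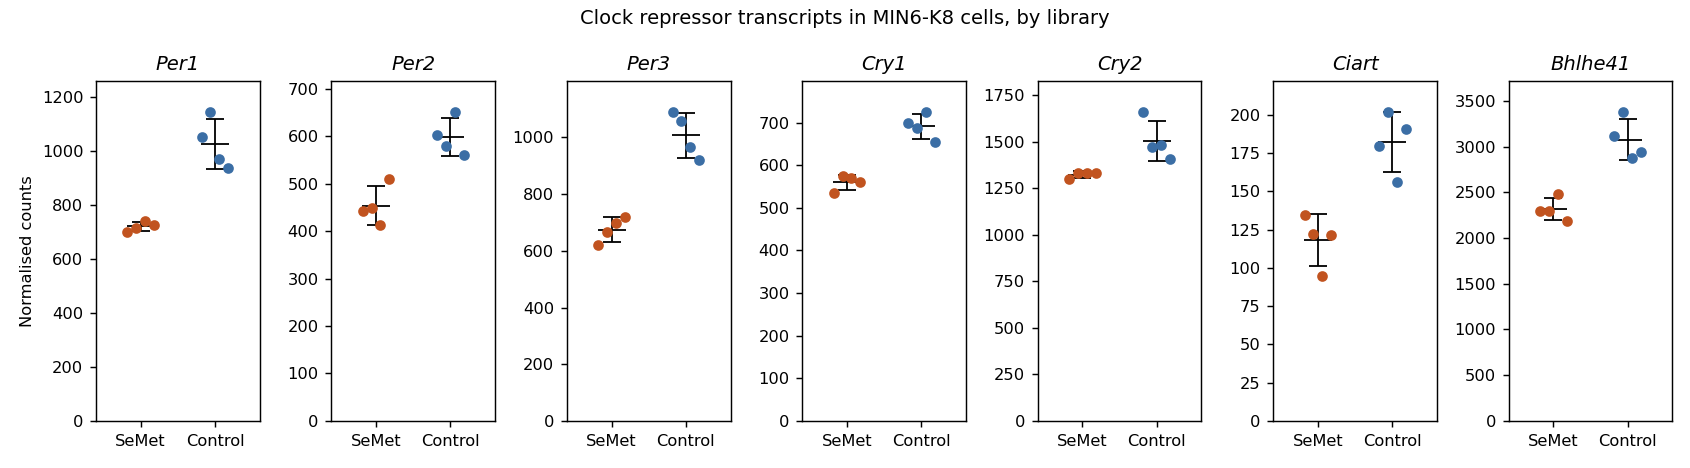
Normalised counts of the 7 clock repressors in each library, SeMet on the left and control on the right of each panel, from 0. Points are libraries, long bars the mean and capped bars the SD (n = 4 each). In each panel the SeMet points lie below the control points, with the narrowest gap for Ciart in counts (21.5) and for Cry2 as a share of the control mean (4.72%).

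The Period genes encode the proteins that carry CRY into the nucleus and set the pace of the loop. Per1 (ENSMUSG00000020893, chromosome 11, 69095217 to 69109960, plus strand of GRCm38) had 700.3, 715, 740.3 and 725 normalised counts in SeMet libraries 1 to 4, against 1050, 1144, 970.2 and 938 in control libraries 1 to 4. The SeMet libraries were nearly level and the controls were spread, with control 2 the highest and control 4 the lowest. Means were 720.3 ± 16.8 in SeMet cells and 1025 ± 92.0 in control cells (SD, n = 4 each, here and below), a log2 difference of -0.50 ± 0.06 (SE, here and below). Per1 is the Period gene best known as an acute target of cyclic AMP and glucocorticoid signals.

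Per2 (ENSMUSG00000055866, chromosome 1, 91415982 to 91459324, minus strand) had 443, 449, 412 and 510 normalised counts in SeMet libraries and 602, 579, 651 and 560 in controls. SeMet 4 came closest to the controls, 50.4 counts below control 4. Means were 453 ± 40.8 in SeMet cells and 598 ± 39.3 in control cells, a log2 difference of -0.40 ± 0.07. Per3 (ENSMUSG00000028957, chromosome 4, 151003652 to 151044665, minus strand), the Period gene least needed for the rhythm itself in mice, had 619, 666, 696 and 718 in SeMet libraries and 1090.0, 1057, 965 and 919 in controls. Its groups were 201 counts apart at their nearest, the widest gap of the 7 relative to the control mean. Means were 675 ± 42.9 in SeMet cells and 1008 ± 79.4 in control cells, a log2 difference of -0.58 ± 0.06.

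The Cryptochrome genes encode the parts of the complex that silence CLOCK and BMAL1, and they had the smallest differences of the 7. Cry1 (ENSMUSG00000020038, chromosome 10, 85131700 to 85185064, minus strand) had 535, 576, 569 and 561 normalised counts in SeMet libraries and 699, 688, 725 and 654 in controls. SeMet 1 was the lowest library and control 3 the highest. Means were 560.2 ± 17.9 in SeMet cells and 691 ± 29.6 in control cells, a log2 difference of -0.30 ± 0.05. Cry2 (ENSMUSG00000068742, chromosome 2, 92403646 to 92434043, minus strand) had 1297, 1334, 1329 and 1330.3 in SeMet libraries and 1659, 1469, 1481 and 1405 in controls. Control 1 stood above the other controls, and the SeMet libraries were nearly level. Means were 1323 ± 17.0 in SeMet cells and 1503 ± 109 in control cells, a log2 difference of -0.18 ± 0.05. Without control 1 that difference was -0.13. Exons of D930015M05Rik, on the other strand, overlap 4.67% of the Cry2 exons; since the strand setting of the counting is not given, reads of both cannot be told apart there.

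CHRONO and DEC2 repress outside the PER and CRY pair. Ciart (ENSMUSG00000038550, chromosome 3, 95878503 to 95882251, minus strand) had the lowest level and the largest relative difference of the 7, with 135, 122, 94.5 and 121 normalised counts in SeMet libraries and 179, 202, 156 and 191 in controls. SeMet 3 was the lowest library and control 3 the lowest control. Means were 118 ± 17.0 in SeMet cells and 182 ± 19.5 in control cells, a log2 difference of -0.63 ± 0.12, the largest SE of the 7. Bhlhe41 (ENSMUSG00000030256, chromosome 6, 145858243 to 145865558, minus strand) had 2300, 2297, 2480 and 2185 in SeMet libraries and 3116, 3380, 2871 and 2946 in controls. SeMet 3 was nearest to the controls, 390.1 counts below control 3. Means were 2316 ± 122 in SeMet cells and 3078 ± 226 in control cells, a log2 difference of -0.41 ± 0.05. Exons of Gm43909, on the other strand, overlap 19.0% of the Bhlhe41 exons, and their reads cannot be told apart either. Gm43909 and D930015M05Rik were not among the listed genes.

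Set in order of log2 difference, the genes ran Ciart, Per3, Per1, Bhlhe41, Per2, Cry1 and Cry2. Neighbours were compared by the ratio of their values within each library, and differences are the first gene named minus the second. Per3 and Ciart differed by 0.05 ± 0.17 (SE) in log2 difference, Per2 and Bhlhe41 by 0.01 ± 0.13, and Per1 and Per3 by 0.07 ± 0.05, all within 2 SE of 0. Per2 and Cry1 differed by -0.10 ± 0.07, also within that range. Per1 and Bhlhe41 differed by -0.10 ± 0.04 and Cry1 and Cry2 by -0.12 ± 0.05, each beyond 2 SE. The 2 ends of the order were further apart, with Cry2 and Ciart differing by 0.44 ± 0.15 and Per3 and Cry2 by -0.39 ± 0.05. These values describe genes chosen for being lower and are not tests.

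Among the 1737 listed genes that were lower, 14.6% had a larger difference than Ciart and 16.6% than Per3. The share was 20.03% for Per1. It was 26.9% for Bhlhe41, 27.6% for Per2 and 40.2% for Cry1. For Cry2 it was 76.4%, so Cry2 was among the smaller differences that the authors listed.

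**Figure D3:**
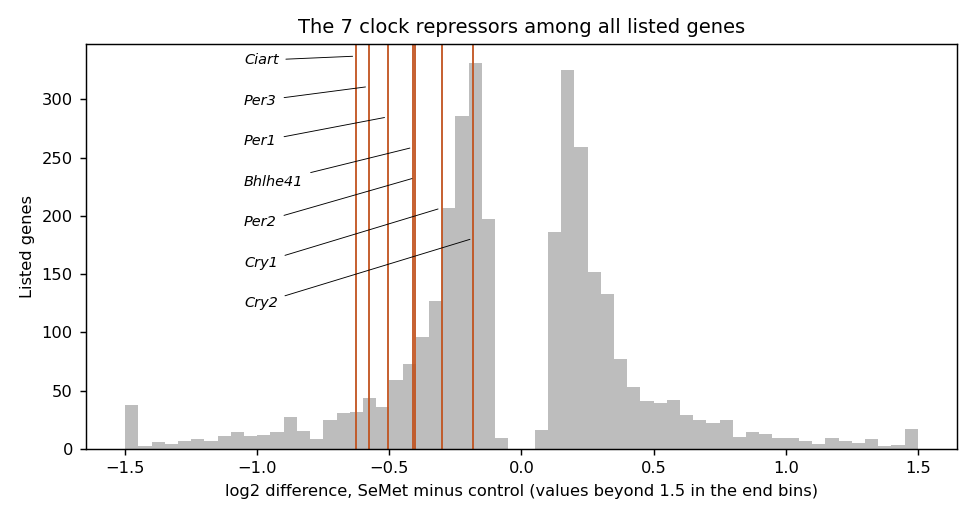
Log2 difference, SeMet minus control, of all 3278 listed genes (grey bars, number of genes per bin of 0.05), with the 7 clock repressors as orange lines. Values off the axis are in the end bins. No listed gene lies between -0.09 and 0.08, and the repressors run from -0.63 (Ciart) to -0.18 (Cry2).

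Levels were compared between genes per kilobase of annotated exon, as normalised counts per kilobase. Bhlhe41 was the highest in both groups, at 345 ± 18.2 in SeMet cells and 458 ± 33.6 in control cells. Cry2 followed at 209 ± 2.69 in SeMet cells and 238 ± 17.3 in control cells, and then Cry1 at 168 ± 5.37 in SeMet cells and 207 ± 8.86 in control cells. Per1 stood at 128 ± 2.99 in SeMet cells, below every Cry1 value of that group, and at 182 ± 16.3 in control cells, where its libraries overlapped those of Cry1. Per2 had 77.4 ± 6.97 in SeMet cells and 102 ± 6.71 in control cells. Per3 had 70.2 ± 4.47 in SeMet cells and 105 ± 8.27 in control cells, and the libraries of Per2 and Per3 overlapped in both groups. Ciart was the lowest, at 52.3 ± 7.51 in SeMet cells and 80.6 ± 8.63 in control cells. Other neighbours in the order did not overlap in either group. These lengths are the union of all annotated exons of a gene, which need not be the transcript these cells make.

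The spread between libraries differed among the genes. The coefficient of variation of Per1 was 2.34% in SeMet libraries and 8.98% in controls, and that of Cry2 1.29% in SeMet libraries and 7.25% in controls. Counting error alone gives 3.64% and 2.68% for these genes in SeMet libraries, and 3.19% and 2.64% in controls. With the inferred reads, the SeMet spread of both genes was below its counting error. That of Cry1 was too, at 3.20% where counting error gives 4.12%. An SD from 4 libraries is itself imprecise, and whether these spreads differ from counting error was not tested. For Ciart and Per2 the SeMet libraries were the more spread. The coefficient of variation of Ciart was 14.4% in SeMet libraries and 10.7% in controls, where counting error gives 8.96% in SeMet libraries and 7.55% in controls. That of Per2 was 9.005% in SeMet libraries and 6.57% in controls, where counting error gives 4.58% in SeMet libraries and 4.17% in controls. Control 4 held the lowest control value of 5 of the 7 genes, all but Ciart and Bhlhe41, and it did so for 40.4% of all listed genes that were lower. SeMet 1 held the lowest SeMet value of 4 of the 7, against 29.5% of those genes. Averaged over the 7 genes, the log2 level relative to the control mean was -0.44, -0.42, -0.46 and -0.39 in SeMet libraries 1 to 4 and 0.05, 0.06, -0.04 and -0.07 in control libraries 1 to 4. The SeMet libraries thus differed less from each other in this mean than the controls did.

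The rest of the clock was read from lists of 55 further genes in the order of the loop. Of these, 14 were listed, and in limma 5 rose and 9 fell (Benjamini-Hochberg adjusted p under 0.05 over the listed genes). As 3277 of the 3278 listed genes passed that test (100%), 47% rising and 53% falling, the count of calls carries no information beyond the listing. When the adjustment ran over all 55450 annotated genes, with unlisted genes at a p of 1, 3 of the 14 passed as higher and 5 as lower. That adjustment passed 71.4% of all listed genes, 33.1% higher and 38.2% lower. The median log2 difference over the 14 was -0.17.

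None of the activators was listed, so Clock, Npas2, Arntl (which encodes BMAL1) and Arntl2 were not analysed here. Of 3 other repressors, Timeless alone was listed. It is the mammalian relative of a fly clock gene and works mainly at replication forks, and it rose to 1769 ± 60.7 normalised counts in SeMet cells, against 1609 ± 23.4 in control cells. The nuclear receptors REV-ERB and ROR act on Arntl in opposite directions. The REV-ERB genes Nr1d2 and Nr1d1 fell by 0.43 ± 0.04 and 0.26 ± 0.07 on the log2 scale, and Rora by 0.26 ± 0.08, with overlapping groups.

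The PAR bZIP factors DBP and TEF activate D-boxes, and NFIL3 represses them. Dbp fell to 1205 ± 123 normalised counts in SeMet cells, against 1881 ± 151 in control cells, and Tef to 2468 ± 107 in SeMet cells, against 3390.4 ± 257 in control cells. Nfil3 rose to 439 ± 39.5 in SeMet cells, against 321 ± 24.2 in control cells, a log2 difference of 0.45 ± 0.08. Nfil3 was the largest rise among the 14 genes, and Dbp, itself an E-box gene, the largest fall.

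**Figure D4:**
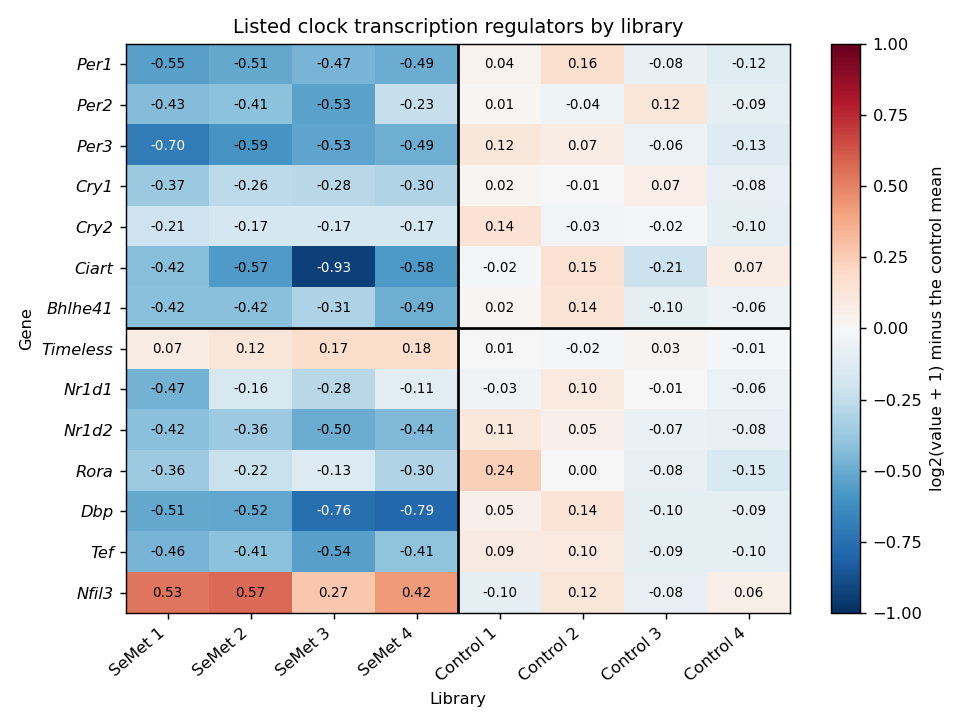
Log2(value + 1) relative to the control mean in each library (columns, SeMet left and control right) for the 7 clock repressors (above the line) and the other listed clock transcription regulators (below it). Blue is lower and red higher, and cells give the value. All 7 repressors, the nuclear receptors, Dbp and Tef are blue in the 4 SeMet libraries, while Nfil3 and Timeless are red.

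Some genes that act on the PER and CRY proteins were listed, and the others were not analysed here. The background is 3278 listed genes of 55450 annotated. Of 12 kinases and phosphatases only Csnk2a1, a casein kinase 2 subunit, was listed, and it fell by 0.14 ± 0.04 on the log2 scale. Of 13 ubiquitin ligase parts and proteases 3 were listed. Btrc, the F-box protein that marks PER for breakdown, rose by 0.16 ± 0.04, while Cul1 and Skp1a, the scaffold and adaptor of that ligase, fell by 0.20 ± 0.04 and 0.14 ± 0.04. Of 14 cofactors 3 were listed. The deacetylase gene Hdac2 rose by 0.16 ± 0.04 and Nono, which binds PER, by 0.08 ± 0.03, while the acetyltransferase gene Ep300 fell by 0.19 ± 0.06 with overlapping groups. With p adjusted over all annotated genes, Csnk2a1, Skp1a, Nono, Ep300, Rora and Timeless did not pass (limma adjusted p = 0.0888, 0.0541, 0.383, 0.0859, 0.126 and 0.0812). Nono also did not pass over the listed genes without SeMet 1 or without control 3 (limma adjusted p = 0.0588 and 0.057).

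**Figure D5:**
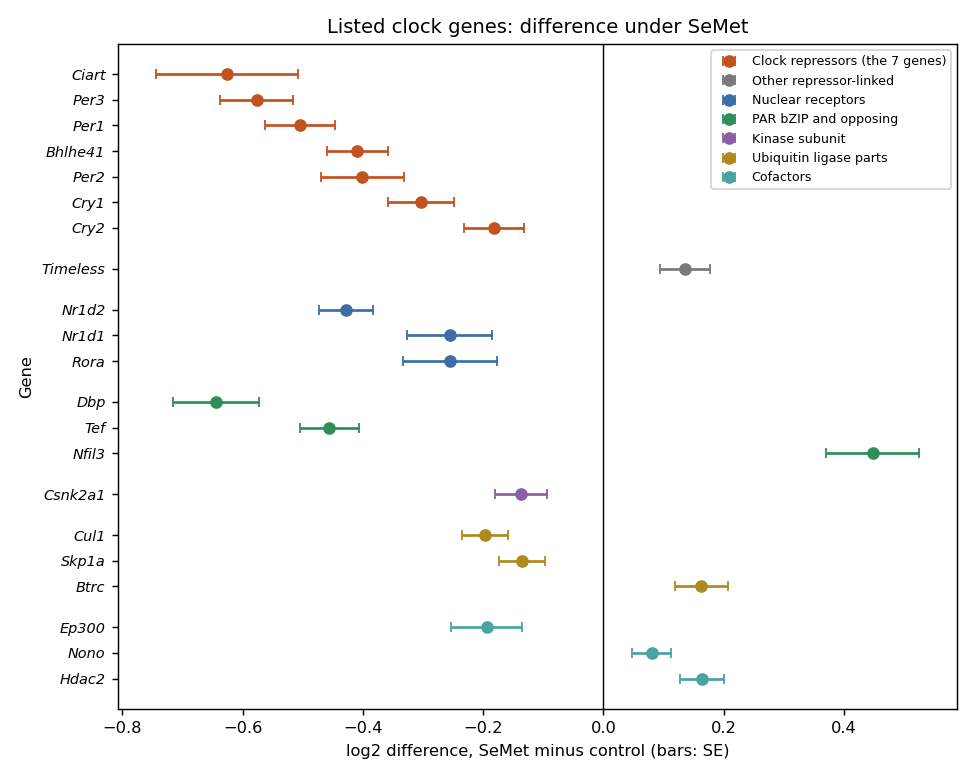
Log2 difference, SeMet minus control, with SE bars, for the 7 clock repressors and the other 14 listed clock genes, grouped by role. The repressors lie between -0.63 and -0.18; among the other genes Dbp (-0.64) and Nfil3 (0.45) lie at the ends.

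Signals known to reach Per1 were described from further lists. Of 15 cyclic AMP and immediate early genes, 4 were listed and went both ways. The coactivator gene Crtc1 and the AP-1 gene Fosb rose by 0.27 ± 0.05 and 0.59 ± 0.13 on the log2 scale, while Rgs2, a brake on G protein signalling, fell by 0.27 ± 0.09 with overlapping groups. The coactivator gene Ppargc1a had a log2 difference of -0.85 ± 0.11. Besides Per1, the glucocorticoid list of 7 held 3 listed genes. The receptor gene Nr3c1 fell by 0.16 ± 0.05 and Klf9 by 0.27 ± 0.06, while Fkbp5 rose by 0.20 ± 0.04. Of 10 outputs of the clock, 7 were listed, 1 higher and 6 lower (median -0.41), beside 47% of all listed genes higher and 53% lower. The higher gene was Klf10 (0.50 ± 0.05). Among the lower genes, Dbp was also counted with the other clock genes above, and Klf9 with the glucocorticoid list. Pfkfb3 (-0.91 ± 0.06) and Tspo (-0.74 ± 0.12), which serve glycolysis and mitochondrial transport, had the largest differences, and Klf9 and the cell cycle kinase gene Wee1 (-0.16 ± 0.05, with overlapping groups) the smallest. With p adjusted over all annotated genes, Rgs2, Nr3c1 and Wee1 did not pass (limma adjusted p = 0.0889, 0.0601 and 0.123). Rescaling to the same listed sum brought Nr3c1 to -0.10 and Wee1 to -0.10, and ended the call of Wee1 (limma adjusted p = 0.0724).

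Bhlhe41 is also known as a gene induced by low oxygen, and Pfkfb3 stands on the hypoxia list too. The hypoxia list of 20 targets had 18 listed genes, where 3278 of all 55450 annotated genes were listed. Each of the 18 fell, beside 53% of all listed genes. All 18 also passed as lower with p adjusted over all annotated genes, beside 38.2% of all listed genes. Their median log2 difference was -0.87, beside -0.13 over all listed genes. Ldha (-2.50 ± 0.15) and Adm (-1.99 ± 0.16) had the largest differences, and Ndrg1 (-0.17 ± 0.04) and Kdm3a (-0.22 ± 0.04) the smallest. Rescaling to the same listed sum brought Ndrg1 to -0.10. Bhlhe40, the nearest relative of Bhlhe41, was not listed. The part of these genes' regulators in the level of Bhlhe41 was not tested.

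Likeness of pattern was measured as the root mean square difference of log2 levels, each centred on its control mean, over the 8 libraries, so that a small value means a like pattern. Among the repressors the most alike were Per1 and Per3 (0.08) and Per1 and Bhlhe41 (0.08), and the least alike Cry2 and Ciart (0.37). Outside the 7, among genes with a mean of at least 100 normalised counts, the nearest to Per1 were Epb41l1, a membrane skeleton gene (0.03), the actin-binding gene Avil (0.04) and the histone demethylase gene Kdm6b (0.05). Kdm6b was also the nearest to Per3 (0.05), followed by the glutamate receptor gene Gria3 and the cationic amino acid transporter gene Slc7a2. Kdm6b had 1535, 1649, 1731 and 1713 normalised counts in SeMet libraries and 2552, 2742, 2252 and 2182 in controls, highest in control 2 and lowest in control 4 among controls, as Per1 was.

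Per2 was nearest to Zfp619 (0.05), Plppr4 (0.07) and Rps6kl1 (0.07). Cry1 was nearest to Zc2hc1c (0.03), Flii (0.04) and Dnal1 (0.04). Cry2 was nearest to the nutrient-sensing GTPase gene Rragd and the kinase genes Prkacb and Dyrk1a, all at 0.03; Prkacb encodes a catalytic subunit of protein kinase A. Bhlhe41 was nearest to Zbtb12 (0.04), Sowahc (0.05) and 4833439L19Rik (0.06). The nearest genes of Ciart, Flvcr2, the potassium channel gene Kcnc2 and Ifngr1, were further off (0.10 to 0.12). The choice was loose, since 8 to 15 of the 21 pairs of repressor and nearest gene were found again when 1 library was left out. No function is implied by likeness over 8 libraries.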

How the data were processed

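RNA was sequenced from MIN6-K8 cells in 4 SeMet and 4 control libraries, grouped by their titles. STAR alignment and featureCounts counting on mm10 are named per the submitters' processing notes; versions, strand setting, annotation, scaling tool and the authors' rule for listing genes are not given in those sources. The authors deposited one signal value for each gene in each library. These were taken to be counts scaled by 1 factor per library, since 100% of values were whole multiples of 1 step within 0.001 of a read. A check of the unit against the file did not accept these inferred reads, so no count test was run.

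Tests used limma 3.58.1 in R 4.3.3 (trended, robust variance) on log2 of the value plus a pseudocount of 1, with treatment as the only term, no filter, Benjamini-Hochberg adjustment over the 3278 listed genes and a threshold of 0.05. Differences on this scale understate those of low genes. Symbols matched for 3276 genes. Positions and exon lengths came from GENCODE M21 (GRCm38), promoters from RefSeq. The labels do not say whether replicate numbers pair the libraries, and the main fit treated them as unpaired. The scripts were tested on simulated data. The 7 genes, the lists and the rules for named genes (all listed genes of short lists, otherwise the 2 largest and 2 smallest differences; the 3 nearest genes of each repressor) were chosen with earlier results of these data known. Alternatives were other pseudocounts, a filter, 2 rescalings, another variance estimate, a replicate block, a wider adjustment and leaving out each library. Those for the nearest genes were added after seeing the data. The listed sum used for rescaling left out Ins1, Ins2 and Iapp.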

Additional observations from a re-analysis of the deposited data

Results flagged for a closer look

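Dixon's check for an outlying library was run in 84 groups of 4 libraries, for 42 genes named from the lists. Per2, Bhlhe41, Klf10 and the nearest genes were not among them. In 3 groups a library's gap to the nearest other library exceeded Dixon's 95% critical share of the group's range. Chance flags about 1 in 20 groups. Cry2 in SeMet library 1 had 1297 normalised counts, below 1329 to 1334 in the other SeMet libraries, where counting error alone gives a coefficient of variation of 2.68%. Chga in SeMet library 4 had 190378 normalised counts, below the other SeMet libraries. Fkbp5 in control library 1 had 2669 normalised counts, below the other controls.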

How the results depend on the processing

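All 7 repressors remained lower, with groups that did not overlap, under every rescaling tried. The same held under every pseudocount and left-out library and with the replicate block, but these settings could not have changed it. Groups that do not overlap stay apart when a library is left out or another pseudocount is added. The replicate block alters no library's value, and it left the log2 differences of the 7 as they were. Of 91 alternative values of their log2 differences, 90 moved by less than the spread between libraries. The exception was Cry1 at -0.24 after rescaling to the same listed sum, taken without Ins1, Ins2 and Iapp. That rescaling also brought Cry2 to -0.12, its lowest size. Over left-out libraries Per1 ranged from -0.55 to -0.45, Per3 from -0.62 to -0.54, Per2 from -0.46 to -0.36, Bhlhe41 from -0.44 to -0.36, Cry1 from -0.33 to -0.28, Cry2 from -0.21 to -0.13 and Ciart from -0.70 to -0.52. The 5 rises and 9 falls of other clock genes became 3 and 5 with p adjusted over all annotated genes, since more genes enter the adjustment. Rescaling to the same listed sum left 7 falls, without Csnk2a1 and Skp1a (limma adjusted p = 0.0832 and 0.0607). Nono did not pass without SeMet library 1 or control library 3 (limma adjusted p = 0.0588 and 0.057). With the replicate block, limma called 1539 listed genes higher and 1733 lower, against 1541 and 1736 without it; deviations of same-numbered libraries correlated at 0.01, 0.15, 0.02 and -0.01 over genes. Of 592 alternative values of the other genes named from the lists, none reversed and 18 lost the call, 11 of them under the wider adjustment. Klf10 and the nearest genes were not among these. With 95 to 216 reads, Ciart has the least depth of the 7.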
